A study of Arabidopsis thaliana with 24 samples.

Results

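Only 15 of the 13859 Arabidopsis thaliana genes with a mean deposited value of at least 5 were higher in seedlings chilled from ZT27 and lower in seedlings chilled from ZT45, in wild-type plants and in the sig5-3 mutant alike. They made up 0.108% of those genes. The 15 genes were selected on their chilling differences, the mean of log2(value + 0.5) at 4 °C minus that at 19 °C. A gene was taken if this difference was at least 0.5 in both genotypes in the ZT27 set and at or below -0.5 in both genotypes in the ZT45 set. Most have well-known roles. LNK1, LNK2, LNK4 and PRR7 belong to the circadian clock. COL5 is a B-box zinc finger protein of the CONSTANS-like family. LHCB1.1, LHCB2.1, LHCB2.2, LHCB2.3 and LHCB3 encode chlorophyll a/b-binding proteins of the major antenna of photosystem II. PHT4;1, BOR5, GATL8, PP2-A11 and AT3G45260, which RefSeq describes as a C2H2-like zinc finger protein, made up the rest.

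RNA-seq was run on 24 libraries in 8 groups of 3 samples, and each sample pooled 10 seedlings. The plants were the Col-0 wild type (WT) and the insertion line SALK_141383C, called sig5-3. SIG5 is a nuclear gene for a sigma factor, a protein that guides the chloroplast's own RNA polymerase to its promoters. All plants had 11 days of growth at 19 °C in a 12 h photoperiod and then 24 h of constant light. In the ZT27 set, WT and sig5-3 seedlings were moved to 4 °C at ZT27 for 5 h or stayed at 19 °C in parallel. In the ZT45 set, seedlings of both genotypes were moved to 4 °C at ZT45 for 3 h or stayed at 19 °C. ZT, zeitgeber time, counts hours from dawn. Start time and length of treatment differ together between the sets, so that they cannot be told apart. The labels describe 1 insertion line, and no complemented line was analysed here.

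The plant circadian clock is a network of transcriptional regulators that peak in turn through the day. The LNK proteins are coactivators that work with the MYB-like factor RVE8 and its relatives to activate evening genes, and PRR7 is a repressor of the morning genes CCA1 and LHY. Antenna genes of the LHCB family are classic outputs of both light and the clock, with transcripts that cycle each day and go on cycling in constant light. LHCB1, LHCB2 and LHCB3 proteins form the trimers of the antenna complex LHCII, which passes excitation energy to photosystem II. In plants shifted to cold, clock components are known to change in level and the oscillation to lose amplitude.

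The deposited values are normalized read abundances per gene that are not divided by gene length, so levels are compared below only within a gene. SIG5 checked the genotype labels: its group means in sig5-3 were 14.2%, 21.3%, 20.5% and 22.6% of those in WT at 19 °C ZT27, 4 °C ZT27, 19 °C ZT45 and 4 °C ZT45. Among all libraries, sig5-3 at 4 °C ZT27 replicate 1 stood farthest from its group, with a root mean square deviation of 0.263 on the log2 scale over genes, against 0.170 for the next. The same 15 genes met the rule without that library. Of 8 root marker genes 4 had values, COBL9, RHD6, EXPA7 and WOX5 had none, and PYK10 (BGLU23), at 445.1 to 1075, made up nearly all of their sum of 487.7 to 1100. In RNA from whole seedlings, fewer cells of a type and less RNA per cell cannot be told apart.

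**Figure D1:**
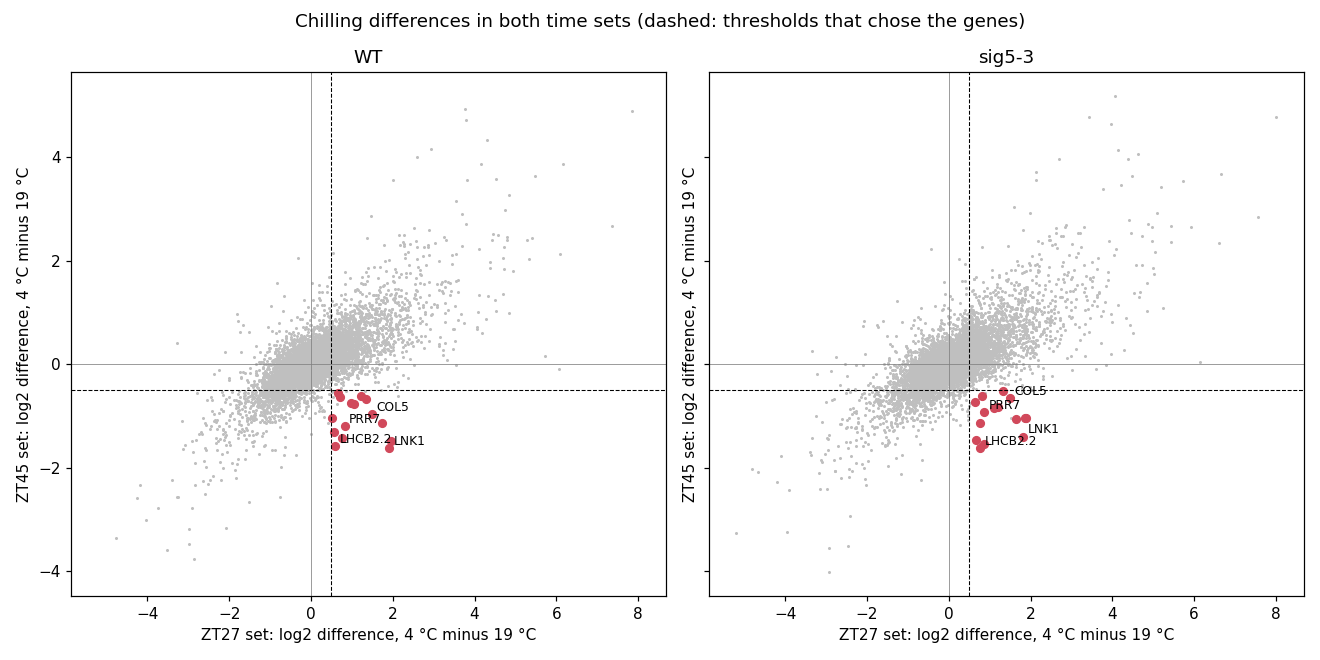
Chilling differences (log2, 4 °C minus 19 °C) of the 13859 genes with a mean of at least 5 in the ZT27 set (horizontal axis) and the ZT45 set (vertical axis), WT on the left and sig5-3 on the right. Red points are the 15 genes in the lower right corner that the dashed thresholds at 0.5 and -0.5 selected, and grey points are the other genes.

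Opposite chilling differences were rare in these data in either direction. By the same thresholds, 689 genes were up in all 4 pairs of groups, 432 were down in all 4, and 12 had the reverse pattern, lower from ZT27 and higher from ZT45. In all, 1753 genes were up at ZT27 in both genotypes and 552 were down at ZT45 in both. The median chilling difference of the 15 genes was 0.97 in WT and 1.1 in sig5-3 in the ZT27 set, and -1.03 in both genotypes in the ZT45 set. These medians follow from the selection and are a description. The 3 libraries at 4 °C did not overlap the 3 at 19 °C for 15 of 15 genes in each of the 4 pairs. These are the same values that chose the genes. Over the 13859 genes, all 4 °C libraries lay above all 19 °C libraries for 35.6% in WT and 31.8% in sig5-3 at ZT27, and below them for 21.1% and 25.4% at ZT45. At an adjusted p under 0.05, limma called 30% of the 13859 genes higher at 4 °C in WT at ZT27 and 33.2% in sig5-3, and called 14.3% lower at 4 °C in WT at ZT45 and 16.7% in sig5-3.

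The clock genes LNK1, LNK2 and LNK4 had the largest WT differences at ZT27 among the 15 genes. LNK1 (AT5G64170), a coactivator of RVE8, had values of 21.0, 21.0 and 20.7 in WT at 19 °C and 79.9, 81.3 and 78.5 at 4 °C in the ZT27 set. In the ZT45 set its WT values were 31.7, 30.2 and 33.6 at 19 °C and 9.34, 9.72 and 11.1 at 4 °C. Among WT libraries, the chilled ones held the highest LNK1 values in the first set and the lowest in the second. In sig5-3 LNK1 stood at 25.7, 18.7 and 20.7 at 19 °C and 55.0, 94.0 and 89.2 at 4 °C in the ZT27 set, and at 29.0, 27.6 and 28.2 against 9.71, 10.3 and 11.3 in the ZT45 set. The low chilled value of 55.0 came from the library that stood apart. The chilling differences of LNK1 were 1.91 in WT and 1.82 in sig5-3 at ZT27. At ZT45 they were -1.62 in WT and -1.40 in sig5-3. Each had a standard error (SE) of 0.13 (log2, 3 libraries a group). SEs here and below are limma's, from 1 spread per gene shared by all 8 groups. Without the library that stood apart, the sig5-3 difference at ZT27 was 2.06.

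LNK2 (AT3G54500), which acts together with LNK1, had WT values of 50.7, 52.3 and 56.6 at 19 °C and 180.0, 181 and 174 at 4 °C in the ZT27 set. At ZT45 its WT values were 219, 198 and 249 at 19 °C and 101, 96.6 and 103 at 4 °C. Unlike LNK1, unchilled WT seedlings of the later set held the highest LNK2 values. The sig5-3 values were 66.6, 46.1 and 49.7 against 168, 223 and 196 in the ZT27 set, and 223, 211 and 186 against 93.7, 102 and 104 in the ZT45 set. Chilled and unchilled libraries of LNK2 stood apart in every pair, with differences of 1.74 in WT and 1.85 in sig5-3 in the ZT27 set and of -1.14 and -1.04 in the ZT45 set (SE 0.11).

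LNK4 (AT5G06980), a shorter relative of LNK1 and LNK2, had WT values of 6.93, 7.70 and 8.70 at 19 °C and 32.1, 32.3 and 29.5 at 4 °C in the ZT27 set. In the ZT45 set they were 25.5, 22.8 and 26.6 at 19 °C and 7.83, 9.21 and 8.80 at 4 °C. Chilled WT seedlings of the ZT45 set were back near the level of unchilled seedlings of the ZT27 set. In sig5-3 LNK4 stood at 8.68, 7.16 and 6.73 against 16.8, 40.1 and 35.6 at ZT27, and at 20.01, 19.2 and 16.7 against 9.19, 8.88 and 8.46 at ZT45. The library that stood apart gave the 16.8, the lowest of its group and still above every unchilled library of that set. The WT differences of LNK4 were 1.95 at ZT27 and -1.48 at ZT45, and the sig5-3 differences were 1.88 and -1.03 (SE 0.20). Leaving that library out moved the sig5-3 difference at ZT27 to 2.26.

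PRR7 (AT5G02810), the repressor of CCA1 and LHY, is shown with its upstream sequence because it was the only clock gene of the 15 with a G-box (CACGTG) in the 300 bases before its start. The sequence, from RefSeq assembly TAIR10.1 at chr5:642031-642330, minus strand, is given 5′ to 3′ on the gene's strand, and capitals mark the G-box.
PRR7: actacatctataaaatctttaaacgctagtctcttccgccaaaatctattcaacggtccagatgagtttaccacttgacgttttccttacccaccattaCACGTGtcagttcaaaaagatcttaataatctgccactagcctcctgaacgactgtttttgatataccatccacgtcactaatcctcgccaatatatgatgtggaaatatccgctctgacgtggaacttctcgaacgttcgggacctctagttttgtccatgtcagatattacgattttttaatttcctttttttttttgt
In WT, PRR7 values were 117, 109 and 109 at 19 °C and 200.3, 199 and 193 at 4 °C in the ZT27 set, and 15.5, 14.5 and 16.6 at 19 °C and 6.25, 6.36 and 6.86 at 4 °C in the ZT45 set. In sig5-3 they were 118, 100.1 and 113 against 183, 212 and 207 at ZT27, and 11.8, 13.0 and 11.4 against 6.13, 6.14 and 6.17 at ZT45. Every library of the ZT27 set lay far above every library of the ZT45 set, at both temperatures. The larger distance at 4 °C follows from the rule that selected the gene. For PRR7 the ZT27 difference was 0.82 in WT and 0.86 in sig5-3, and the ZT45 difference was -1.19 and -0.92 (SE 0.07).

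The rule separated the morning clock genes by their ZT45 values. Of the 12 genes with values in a list of morning clock components, the 8 that the rule did not take were all called higher at 4 °C in the ZT27 set, in each genotype, with a median difference of 2.45 in WT against -0.01 over all genes. In the ZT45 set, 4 of these 8 were called higher at 4 °C in WT and 5 in sig5-3, and none was called lower (limma, adjusted p under 0.05, and 0 also at an unadjusted p under 0.05; 22.7% of the 13859 genes were called higher in WT and 19.3% in sig5-3). All 8 were higher by more than 0.5 at ZT27, so that being left out by the rule already kept them from being lower by 0.5 in both genotypes at ZT45, and these counts describe that choice. The LNK family itself was split. LNK3, the closest relative of LNK4, had a difference of 2.52 ± 0.24 (SE) at ZT27 in WT and of -0.02 ± 0.24 at ZT45 (adjusted p = 0.96). RVE8, the partner of the LNK proteins, had 2.37 ± 0.14 at ZT27 and -0.27 ± 0.14 at ZT45 in WT (adjusted p = 0.14). CCA1, a MYB-like repressor at the centre of the morning loop, rose in both sets in WT, by 3.58 ± 0.15 and 0.85 ± 0.15 (adjusted p = 3.6e-14 and 0.00016). The Arabidopsis relative of PRR7 in that loop, PRR9, had WT differences of 3.47 ± 0.23 and 0.29 ± 0.23 (adjusted p = 0.35 at ZT45), while in sig5-3 it rose at ZT45 by 1.15 ± 0.23 (adjusted p = 0.00043); the difference between the genotypes was not tested.

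Most evening clock genes were higher at 4 °C in the ZT45 set. Of 15 with values, 12 were called higher at 4 °C in WT at ZT45 and 1, CHE, was called lower. Of the 13859 genes, 22.7% were called higher and 14.3% lower there. None of the 15 evening clock genes was selected by the rule. PRR5, an evening repressor of the same protein family as PRR7, was higher at 4 °C by 2.58 ± 0.10 (SE) at ZT27 and by 4.00 ± 0.10 at ZT45 in WT (limma, adjusted p = 2.9e-16 and 5.6e-19).

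COL5 (AT5G57660) was the B-box gene among the 15. Its WT values were 38.2, 38.9 and 34.3 at 19 °C and 107, 105 and 103 at 4 °C in the ZT27 set, and 25.7, 25.1 and 29.9 against 13.4, 13.7 and 13.4 in the ZT45 set. Its sig5-3 values were 43.7, 35.3 and 37.6 against 118, 111 and 100.1 at ZT27, and 24.1, 26.0 and 22.3 against 13.5, 15.6 and 16.4 at ZT45. COL5 was highest in the chilled libraries of the first set and lowest in those of the second, in both genotypes. The differences were 1.49 in both genotypes at ZT27, and -0.96 in WT and -0.66 in sig5-3 at ZT45 (SE 0.09). Among the 19 other B-box genes with values, 13 were called higher at 4 °C and 4 lower in WT at ZT45. Of the 13859 genes, 22.7% were called higher and 14.3% lower there. One of the 4, BBX20, was also called higher at ZT27, by 0.86 in WT and 0.63 in sig5-3. Its ZT45 differences were -0.36 and -0.66, both called lower, and its mean of 2.26 lay under the minimum of 5.

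**Figure D2:**
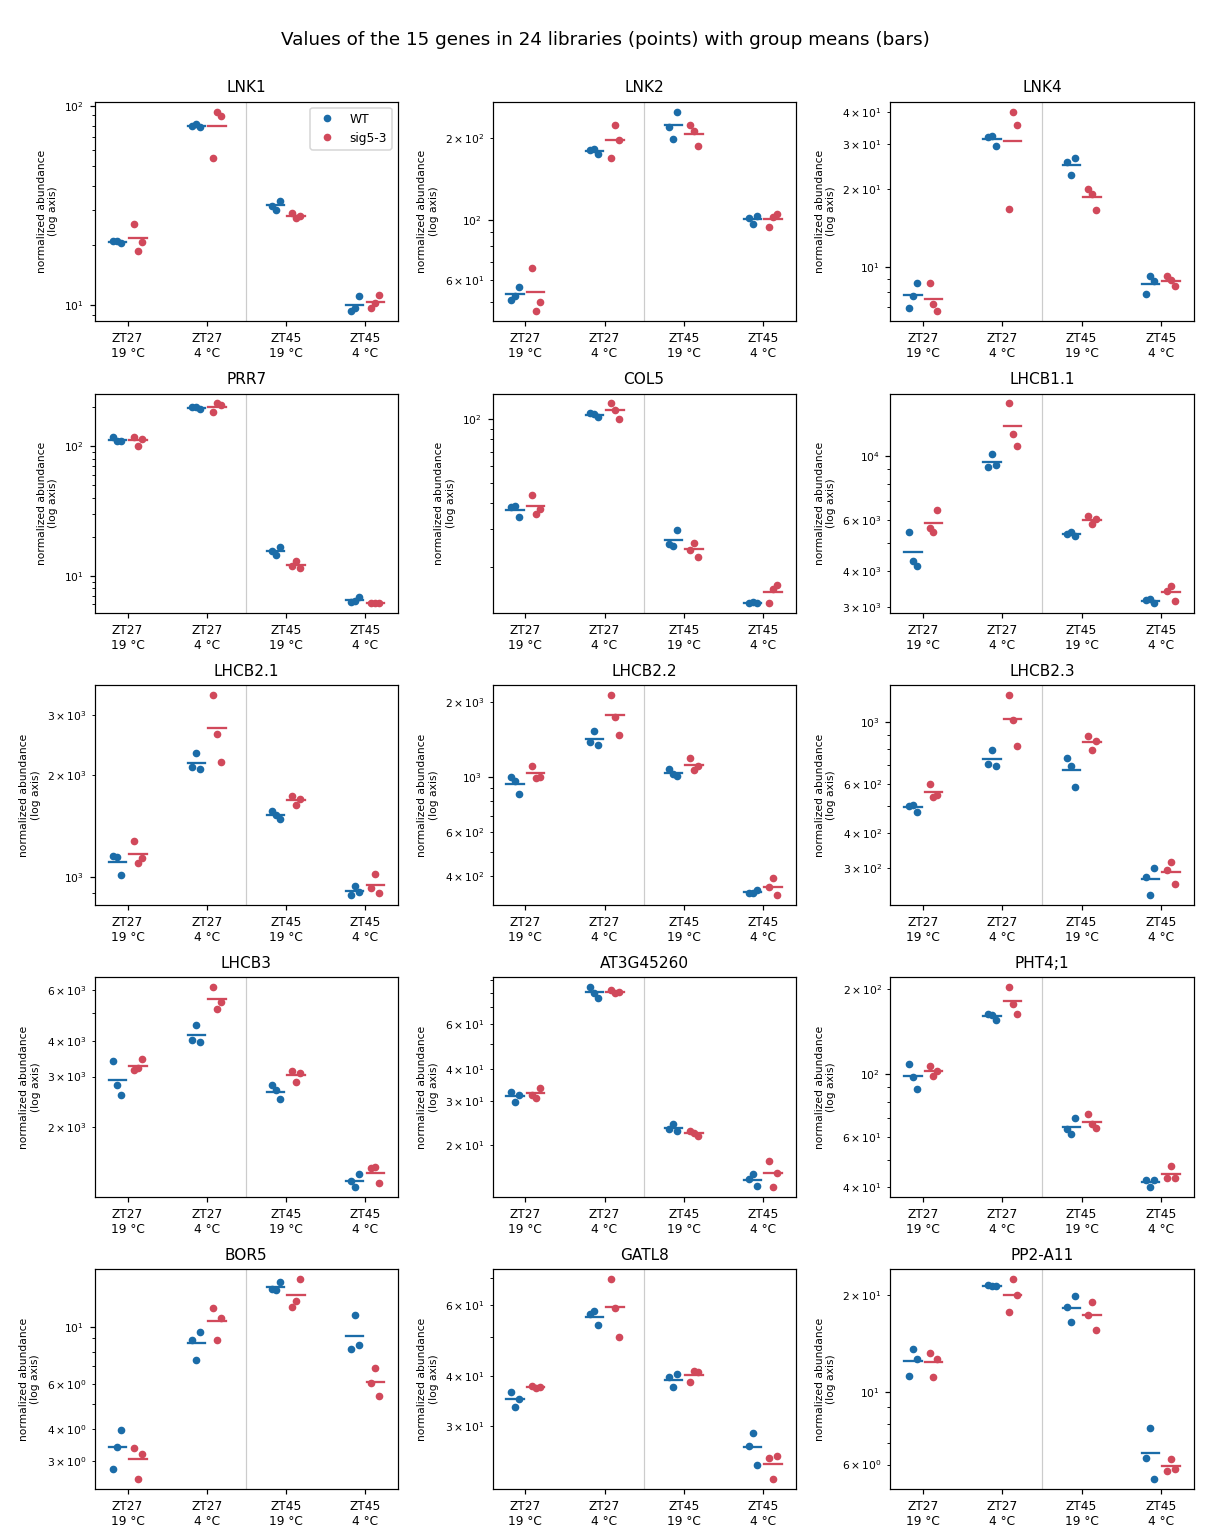
Deposited values (normalized abundance, log axis) of the 15 genes in each of the 24 libraries, WT in blue and sig5-3 in red, by time set and temperature, with bars at the group means of 3 libraries. In each panel the 4 °C points lie above the 19 °C points in the ZT27 set and below them in the ZT45 set, as the rule required, while the levels at 19 °C differ between the sets in either direction.

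The 5 LHCB genes among the 15 encode the 3 kinds of subunit of LHCII. LHCB1.1 (AT1G29920) and LHCB2.3 (AT3G27690) are shown with the 300 bases before their starts, from RefSeq assembly TAIR10.1, because they differed in the motifs found there. For LHCB1.1 (chr1:10475970-10476269, minus strand) capitals mark a CCA1 binding site (AAAAATCT), and for LHCB2.3 (chr3:10255606-10255905, plus strand) they mark a G-box.
LHCB1.1: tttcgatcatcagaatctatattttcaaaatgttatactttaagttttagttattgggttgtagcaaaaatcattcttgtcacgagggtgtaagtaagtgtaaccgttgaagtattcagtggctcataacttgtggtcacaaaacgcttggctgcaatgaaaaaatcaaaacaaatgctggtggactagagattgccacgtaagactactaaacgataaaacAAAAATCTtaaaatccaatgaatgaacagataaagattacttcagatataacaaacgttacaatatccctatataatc
LHCB2.3: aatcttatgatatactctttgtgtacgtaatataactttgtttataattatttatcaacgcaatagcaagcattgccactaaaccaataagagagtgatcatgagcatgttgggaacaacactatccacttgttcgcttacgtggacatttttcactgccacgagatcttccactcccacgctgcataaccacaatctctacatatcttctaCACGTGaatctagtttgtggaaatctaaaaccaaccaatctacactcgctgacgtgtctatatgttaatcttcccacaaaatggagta
LHCB1.1 had WT values of 5469, 4334 and 4175 at 19 °C and 9146, 10167 and 9336 at 4 °C in the ZT27 set, and 5361, 5464 and 5289 against 3176, 3199 and 3101 in the ZT45 set. In sig5-3 they were 5658, 5460.4 and 6523 against 15208, 11933 and 10849 at ZT27, and 6208, 5828 and 6083 against 3427, 3553 and 3166 at ZT45. Unchilled WT libraries of the 2 sets overlapped, while the chilled ones lay above them in the first set and below them in the second. The LHCB1.1 difference in the ZT27 set was 1.04 in WT and 1.1 in sig5-3, and in the ZT45 set -0.77 and -0.84 (SE 0.10).

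The 3 LHCB2 genes differed in the size of each part of the pattern. LHCB2.1 (AT2G05100) had WT values of 1157, 1145 and 1017 at 19 °C and 2112, 2321 and 2088 at 4 °C at ZT27, and 1571, 1527 and 1481 against 886, 944 and 906 at ZT45. LHCB2.2 (AT2G05070) had WT values of 997, 963 and 852 against 1377, 1529 and 1347 at ZT27, and 1079, 1027 and 1006 against 342, 343 and 352 at ZT45. LHCB2.1 had the larger difference at ZT27 and LHCB2.2 the larger one at ZT45, with WT differences of 0.97 and -0.74 (SE 0.10) for the first and 0.60 and -1.58 (SE 0.09) for the second. LHCB2.3 had WT values of 500.2, 506 and 477 against 709, 795 and 698 at ZT27, and 742, 696 and 585 against 279, 239.5 and 299.6 at ZT45. Its WT differences were 0.57 and -1.30 (SE 0.11), close in kind to those of LHCB2.2.

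In sig5-3, LHCB2.1 values were 1275, 1104 and 1142 at 19 °C and 3423, 2629 and 2178 at 4 °C at ZT27, and 1735.0, 1627 and 1694 against 930.0, 1022 and 897 at ZT45. LHCB2.2 values were 1109, 989 and 1003 against 2120.1, 1739 and 1473, and 1188, 1062 and 1106 against 361, 393 and 336. LHCB2.3 values were 599.7, 538 and 549.5 against 1244, 1017 and 821, and 889.7, 794 and 853 against 296, 314 and 263. For all 3 genes the chilled ZT27 libraries spread widely, with replicate 1, the library that stood apart, at the top. The sig5-3 differences were 1.2 and -0.83 for LHCB2.1, 0.77 and -1.62 for LHCB2.2, and 0.85 and -1.54 for LHCB2.3, and without that library those at ZT27 were 1.03, 0.63 and 0.70.

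LHCB3 (AT5G54270), the third kind of subunit, had WT values of 3387, 2813 and 2585 at 19 °C and 4040.2, 4559 and 3974 at 4 °C at ZT27, and 2796, 2686 and 2494 against 1298, 1231 and 1365 at ZT45. Its sig5-3 values were 3159, 3207 and 3457 against 6149.8, 5177 and 5459.8, and 3125, 2879.9 and 3082 against 1432, 1452 and 1268. One unchilled WT library at ZT27, at 3387, lay well above the other two but below all chilled ones. The WT difference at ZT27, 0.52 (SE 0.09), was just inside the threshold, and the sig5-3 difference was 0.77. At ZT45 the differences were -1.03 and -1.13.

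Reads of several of these genes are hard to assign. Coding sequences of LHCB2.1 and LHCB2.2, which lie 22517 bases apart on chromosome 2, were 96.62% identical, and LHCB1.1 was 95.65% and 96.14% identical to LHCB1.2 and LHCB1.3. Of all stretches of 75 bases in the transcript, 10.4% for LHCB1.1, 15.3% for LHCB2.1 and 19.1% for LHCB2.2 also occurred in another gene. For the 12 other genes this share was 0. The labels and files do not say how shared reads were counted, so the split between these copies is uncertain. LNK1, PHT4;1, LHCB2.3 and LHCB3 each overlap a gene with values on the opposite strand. The library kit keeps strand, but whether counting used it is not given, so some of their reads may belong to that neighbour.

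Most other light-harvesting genes were also lower at 4 °C in the ZT45 set, in the same differences that the rule sorted on. Of the 15 light-harvesting genes outside the 15 selected ones, 10 were called lower at 4 °C in WT at ZT45 and 13 in sig5-3. None was called higher (limma, 0 also at an unadjusted p under 0.05). Of the 13859 genes, 14.3% in WT and 16.7% in sig5-3 were called lower at ZT45, and 22.7% and 19.3% higher. At ZT27, 3 of these 15 light-harvesting genes were called higher and 1 lower in WT, and 12 higher and 1 lower in sig5-3. Of the 13859 genes, 30% in WT and 33.2% in sig5-3 were called higher at ZT27, and 28.1% and 28.4% lower. The gene called lower was LHCA6, an antenna protein of photosystem I, at -0.79 ± 0.09 (SE) in WT (limma, adjusted p = 4.1e-08). LHCA4 had a WT difference of 0.31 ± 0.09 at ZT27 and of -1.02 ± 0.09 at ZT45 (adjusted p = 0.004 and 1.3e-09). LHCB1.2, the near copy of LHCB1.1, had 0.24 ± 0.11 (adjusted p = 0.061) and -0.82 ± 0.11 (adjusted p = 1.8e-06). LHCB4.3, a minor antenna gene, had the reverse emphasis in WT, at 0.74 ± 0.15 in the ZT27 set (adjusted p = 0.0003) against 0.14 ± 0.15 in the ZT45 set (adjusted p = 0.5).

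**Figure D3:**
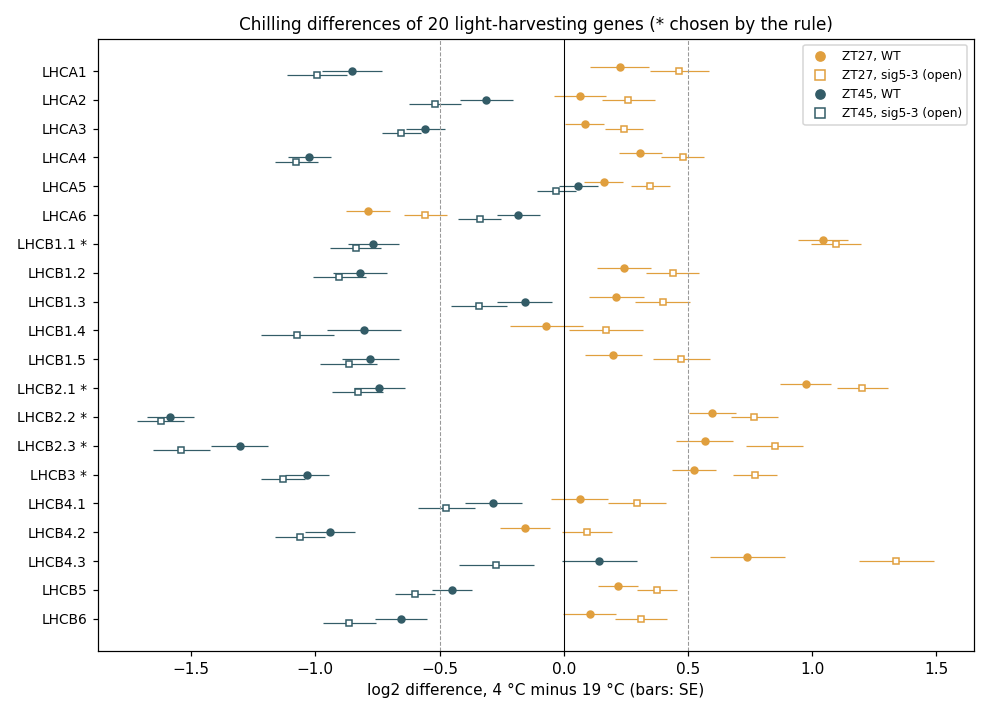
Chilling differences (log2, 4 °C minus 19 °C, with SE) of the 20 light-harvesting genes, ZT27 in orange and ZT45 in dark blue, WT as filled circles and sig5-3 as open squares, with dashed lines at 0.5 and -0.5. The 5 genes marked by a star were selected by the rule and have points beyond both lines in both genotypes, while most others reach the left line only.

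The last 5 genes are transporters and genes of other roles. PHT4;1 (AT2G29650), a phosphate transporter of the thylakoid membrane, had WT values of 109, 98.0 and 88.5 at 19 °C and 163, 162 and 155 at 4 °C at ZT27, and 64.1, 61.7 and 70.1 against 42.5, 40.1 and 42.6 at ZT45. Its differences, 0.71 and -0.64 in WT and 0.81 and -0.60 in sig5-3 (SE 0.08), were of nearly equal size in both directions. BOR5 and GATL8 are shown with the 300 bases before their starts (RefSeq assembly TAIR10.1, chr1:28107522-28107821, plus strand and chr1:8559067-8559366, minus strand), since they held the other G-boxes, in capitals.
BOR5: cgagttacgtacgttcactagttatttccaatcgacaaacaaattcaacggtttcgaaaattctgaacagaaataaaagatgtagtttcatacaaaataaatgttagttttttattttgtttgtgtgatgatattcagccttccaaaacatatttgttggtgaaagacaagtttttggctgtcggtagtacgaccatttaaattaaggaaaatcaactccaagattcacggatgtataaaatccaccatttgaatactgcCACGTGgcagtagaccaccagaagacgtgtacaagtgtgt
GATL8: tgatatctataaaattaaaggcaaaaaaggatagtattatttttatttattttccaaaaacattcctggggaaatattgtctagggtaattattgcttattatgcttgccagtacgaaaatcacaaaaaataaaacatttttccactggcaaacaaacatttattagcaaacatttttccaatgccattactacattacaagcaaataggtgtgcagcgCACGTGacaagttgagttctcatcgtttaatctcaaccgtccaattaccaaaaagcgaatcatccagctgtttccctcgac
BOR5 (AT1G74810), a member of the borate exporter family, had WT values of 2.79, 3.39 and 3.98 against 8.84, 7.44 and 9.57 at ZT27, and 14.004, 13.9 and 14.9 against 8.18, 11.1 and 8.46 at ZT45. It was the gene of the 15 with the fewest reads, an estimated 89 in its lowest library, taking the common step between low values of a library as 1 read. Its differences were 1.23 and -0.61 in WT and 1.63 and -1.06 in sig5-3 (SE 0.14).

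GATL8 (AT1G24170), a galacturonosyltransferase-like protein of a family linked to cell wall pectin, had WT values of 36.5, 33.5 and 35.1 against 56.96, 57.8 and 53.4 at ZT27, and 39.6, 37.4 and 40.3 against 26.7, 28.8 and 24.0 at ZT45. Its differences were among the smallest of the 15, 0.67 and -0.56 in WT and 0.64 and -0.73 in sig5-3 (SE 0.08). PP2-A11 (AT1G63090), of the phloem protein 2 family, had WT values of 11.2, 13.6 and 12.7 against 21.4, 21.2 and 21.3 at ZT27, and 18.4, 16.5 and 19.8 against 6.30, 7.76 and 5.41 at ZT45. Outside the LNK and LHCB genes PP2-A11 had the most negative WT difference at ZT45, with log2 differences of 0.75 and -1.43 in WT and 0.67 and -1.46 in sig5-3 (SE 0.11). The sum of 3 phloem markers lay between 116.7 and 140.8 in the WT groups. In sig5-3 it was 121.4 to 139 at 19 °C and 122.8 to 178.7 at 4 °C in the ZT27 set. In the ZT45 set it was 135.3 to 146.5 and 121.4 to 124.1. The part of this sum in the PP2-A11 values was not tested. AT3G45260 had WT values of 32.4, 29.6 and 31.6 against 84.0, 80.1 and 76.4 at ZT27, and 23.2, 24.4 and 22.9 against 14.7, 15.4 and 13.8 at ZT45. With differences of 1.35 and -0.67 in WT and 1.32 and -0.52 in sig5-3 (SE 0.07), it lay nearest to the ZT45 threshold. In sig5-3 as in WT, the chilled and unchilled values of these 5 genes did not overlap in either set, with ZT27 medians at 4 °C of 177 for PHT4;1, 10.8 for BOR5, 58.8 for GATL8, 19.97 for PP2-A11 and 80.7 for AT3G45260.

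The values beside the threshold formed no gap. The 5 selected genes nearest to it had a smallest difference of 0.60 (LHCB2.2), 0.57 (LHCB2.3), 0.56 (GATL8), 0.52 (LHCB3) and 0.52 (AT3G45260). The 5 nearest outside were AT3G19680 at 0.497, AT5G62900 at 0.470, the cytokinin response regulator ARR7 at 0.442, AT4G23680 at 0.433 and AT2G27500 at 0.429. Another 4 genes met the differences with a mean below 5, AT2G43445, AT3G53830, AT5G23360 and SDI1 (AT5G48850), a gene known for its induction by sulfur deficiency.

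At 19 °C alone the 15 genes did not share a direction between the sets. Mean WT levels at 19 °C were higher in the ZT45 set for 10 genes and lower for 5, over a log2 range from -2.81 for PRR7 to 2.05 for LNK2. BOR5 and LNK4 were next to LNK2, at 1.94 and 1.62, and PHT4;1, COL5 and AT3G45260 were next to PRR7, at -0.58, -0.46 and -0.40. The LHCB genes lay in between, from -0.13 for LHCB3 to 0.47 for LHCB2.1. At 4 °C, 14 of 15 were lower in the ZT45 set in WT and 15 of 15 in sig5-3. These values share libraries with the rule and are given with no test and no matching share over all genes. In 7 genes of each genotype the order of group means was 4 °C ZT27, 19 °C ZT45, 19 °C ZT27 and 4 °C ZT45, from highest to lowest. In 5 more of each genotype both ZT27 groups lay above both ZT45 groups. BOR5 and LNK2 were the genes with unchilled ZT45 seedlings at the top in WT.

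The genotype comparison, averaged over the 4 conditions, does not use the chilling differences that chose the genes. In it 4 of the 15 genes were called, all higher in sig5-3 and all LHCB genes, against 6.39% of all genes called in either direction and 4.03% called higher. LHCB2.3 was higher in sig5-3 by 0.27 ± 0.06 (SE, log2, limma, adjusted p = 0.0084), LHCB1.1 by 0.25 ± 0.05 (adjusted p = 0.0065), LHCB3 by 0.22 ± 0.04 (adjusted p = 0.0065) and LHCB2.2 by 0.16 ± 0.05 (adjusted p = 0.045). LHCB2.1 differed by 0.15 ± 0.05 (adjusted p = 0.084). The calls of LHCB1.1, LHCB2.3 and LHCB3 held in 30 of 30 alternatives. That of LHCB2.2 held in 11 of 30, and among libraries left out singly it held in 7 of 24, with adjusted p up to 0.095. Those 7 were replicate 1 of WT 19 °C ZT27, replicate 2 of WT 4 °C ZT27, replicates 1, 2 and 3 of sig5-3 4 °C ZT27, replicate 2 of sig5-3 19 °C ZT45 and replicate 3 of sig5-3 4 °C ZT45.

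These LHCB genes were not alone in that difference. Of the 15 other light-harvesting genes, 13 were called higher in sig5-3, among them LHCB5 by 0.19 ± 0.04 (adjusted p = 0.0075) and LHCA3 by 0.18 ± 0.04 (adjusted p = 0.01), which gives 17 of all 20. The median over the 20 was 0.19, against 0.01 over all genes. The summed level of the 4 mesophyll markers, RBCS1A, LHCB1.2, CA1 and RCA, was 39610 to 48940 in sig5-3 at 4 °C ZT27 against 32180 to 34750 in WT, and 40190 to 45230 at 19 °C ZT45 against 36010 to 38380. At 4 °C ZT45 it was 35720 to 37870 against 34380 to 35410, and at 19 °C ZT27 the genotypes overlapped, at 28710 to 31840 against 25040 to 31080. One of these 4 markers is itself a light-harvesting gene. The summed root markers were 811.5 to 958.4 in sig5-3 at 4 °C ZT27 against 1024 to 1100 in WT, and overlapped in the other 3 conditions, at 779.7 to 923.9 against 768.9 to 980.5 at 19 °C ZT27, 487.7 to 660.5 against 648 to 752.8 at 19 °C ZT45 and 544.5 to 718.9 against 646.2 to 725.5 at 4 °C ZT45. The part of either in the result was not tested.

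**Figure D4:**
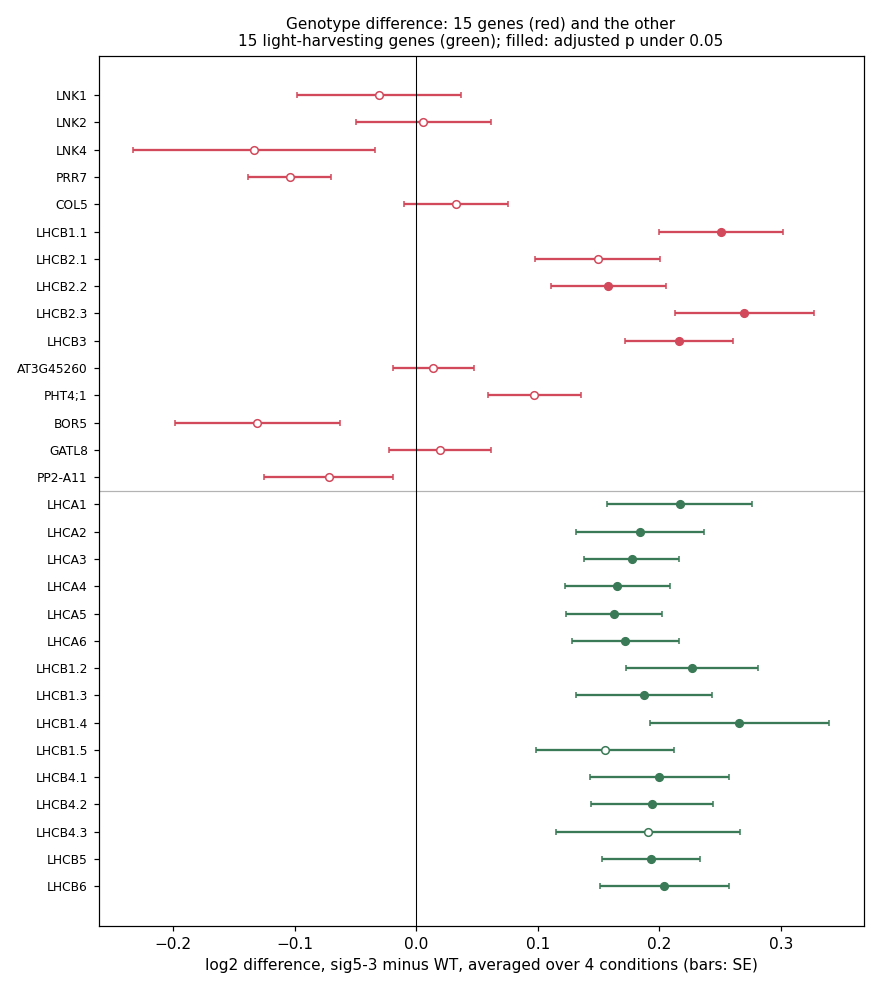
Genotype difference (log2, sig5-3 minus WT, averaged over the 4 conditions, bars SE) of the 15 selected genes in red and of the other 15 light-harvesting genes in green, filled where limma's adjusted p was under 0.05. All light-harvesting genes lie right of 0 between 0.15 and 0.27, and the clock genes, COL5 and the remaining genes lie on both sides of it with open symbols.

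In the ZT27 set taken alone, 3 of the 15 genes were called higher in sig5-3 and none lower (0 also at an unadjusted p under 0.05), against 4.16% of all genes called. LHCB1.1 differed by 0.37 ± 0.07 (SE, log2, limma, adjusted p = 0.011), LHCB2.3 by 0.33 ± 0.08 (adjusted p = 0.028) and LHCB3 by 0.29 ± 0.06 (adjusted p = 0.015). With a spread estimated from the ZT27 libraries alone, none of them passed (adjusted p = 0.11 each). The count fell to 1 without WT 19 °C replicate 2, without sig5-3 19 °C replicate 3 and without WT 4 °C replicate 1 or 3, and rose to 5 without sig5-3 4 °C replicate 3. In the ZT45 set limma called 0 of the 15 and 0.0891% of all genes. At an unadjusted p under 0.05 there were 4 of the 15, against 1546 of the 17952 genes. PRR7 differed there by -0.21 ± 0.05 (adjusted p = 0.096), and without the sig5-3 4 °C ZT27 replicate 1 library it was called lower in sig5-3 at the same size (adjusted p = 0.025). BOR5 differed by -0.33 ± 0.10 (adjusted p = 0.25). The difference between the 2 sets in the genotype effect was called by limma for 0 of the 15 and 0.00557% of all genes. At an unadjusted p under 0.05 there were 3 of the 15, against 1190 of the 17952 genes. That difference was below 0 for 15 of the 15, and for 14 without the library that stood apart. Its median was -0.11 over the 15 and 0.008 over all genes. The 15 were measured in the same libraries, so their signs are not independent. An effect of sig5-3 that differs between the sets was therefore not shown for any of the 15.

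Chilling differences themselves were close between the genotypes, partly because the rule asked for all 4. The sig5-3 minus WT difference in the response ran from -0.09 to 0.40 at ZT27 and from -0.45 to 0.45 at ZT45, as a description with no test. The extremes were BOR5, whose response was larger in sig5-3 by 0.40 at ZT27 and by 0.45 at ZT45 in the downward direction, and LNK4, whose drop at ZT45 was smaller in sig5-3 by 0.45. In the unchilled ZT45 libraries the LNK4 mean in sig5-3 was 74.6% of the WT mean, and all 3 sig5-3 libraries lay below the WT ones. Genotype differences in a single condition were not tested. PRR7 in the same unchilled libraries stood at 77.8% of WT, again with no overlap. Among the selected genes in unchilled ZT45 libraries, sig5-3 lay wholly below WT for 4, wholly above for 4 and overlapped for 7. At 4 °C ZT45, BOR5 stood at 66.1% of WT, without overlap. There sig5-3 lay wholly below WT for 2 selected genes, wholly above for 1 and overlapped for 12. The matching shares over all genes are not given, so these counts are a description and no result about the 15. In the ZT45 set limma called 0 of the 15 between genotypes, and 0.0891% of all genes. With all libraries, limma called none of LNK4, PRR7 and BOR5 between genotypes in the ZT45 set (adjusted p = 0.78, 0.096 and 0.25).

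Upstream sequence gave no motif common to all 15. A G-box lay within the 300 bases upstream of 4 genes (26.7%), PRR7, BOR5, LHCB2.3 and GATL8, against 7.97% of the 17952 genes with values. The CCA1 binding site AAAAATCT was found for LHCB1.1 and PHT4;1 (13.3%, against 8.03% of all). The evening element AAAATATCT was found in none of the 15 windows, against 2.97% of all, and the telo box AAACCCTA in none, against 4.40%. The CRT/DRE core CCGAC was found in 3 (20%, against 15.1%), the I-box GATAAG in 1 (6.67%, against 14.5%), CACATG in 2 (13.3%, against 12.7%), TGGGCC in 3 (20%, against 18.4%) and TATAAA in 7 (46.7%, against 51.3%). Both strands were searched, and none of these motifs contains another. In the sequences printed above, the G-box starts 201 bases before the start of PRR7, 88 before LHCB2.3, 81 before GATL8 and 40 before BOR5, and the CCA1 site starts 78 bases before LHCB1.1. With windows of 1000 bases, the G-box share was 26.7% against 15.9%, and the evening element was again found in none, against 7.29%. A match describes letters, not a bound site.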

How the data were processed

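Per the labels' protocols, libraries came from total RNA with a stranded mRNA kit. Per the submitters' processing notes and design text, STAR 2.4.1d and Partek Genomics Suite 6.6 were used, with a genome called TAIR11. The labels do not say how reads were counted or scaled. The authors deposited 1 value per gene and library, a normalized signal and not a raw count. Library totals ran from 790711 to 1092052. Of values under 30, 88.8% to 91.4% were whole multiples of a library's step (tolerance 0.05 steps), which puts 1 read at 0.0229 to 0.0372 and a library at 21274972 to 36440651 reads. The others were not whole, so no count test was run.

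Of 37336 genes, 17952 had values. They were tested as log2(value + 0.5) in limma 3.58.1 (R 4.3.3; trended, robust empirical Bayes), with 8 group means, 16 residual degrees of freedom and Benjamini-Hochberg adjustment over all 17952; a call is an adjusted p under 0.05. The code was tested on simulated data. A fold change on this scale understates the change of low genes. The genotype comparisons average 4 °C and 19 °C and do not use the chilling differences that chose the genes. Chilling tests are printed only for genes outside the 15 and use the differences the rule sorted on. A test between time sets over both temperatures was planned and is not reported, since the rule fixes part of that difference. The genes and lists were chosen with earlier results of these data known, and the naming rule took all 15 genes, the 5 nearest on each side of the threshold, genes passing a genotype test, members of the gene lists and SIG5; the list genes given with values were chosen after their values were seen. Alternatives were another pseudocount, scaling, mean minimum or threshold, a fit on 1 time set, plain empirical Bayes, a replicate block, and leaving out each library. Replicates were independent per the design text.

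The deposited values carry no coordinates. Positions and sequences are those of RefSeq TAIR10.1, matched by gene identifier, and 300 bases upstream means before the RefSeq gene start. Python 3.11.15, numpy 2.4.6, pandas 2.3.3 and matplotlib 3.10.9 were used.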

Additional observations from a re-analysis of the deposited data

How the results depend on the processing

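Of 1620 recomputed chilling differences of the 15 genes, 0 reversed. The number of genes meeting the rule was 16 with a pseudocount of 0.1 and 14 with 2, 16 with median-ratio scaling, 19 with a mean minimum of 1 and 14 with 10, 23 with a difference of 0.4 and 5 with 0.75. Leaving out single libraries gave 14 to 17, and 12 of the 15 met the rule each time. LHCB3 was lost without WT 19 °C ZT27 replicate 2 or 3 or WT 4 °C ZT27 replicate 2, GATL8 without WT 4 °C ZT45 replicate 3, and AT3G45260 without sig5-3 4 °C ZT45 replicate 2. Of the 15, those called between genotypes over all conditions numbered 3 to 6 with a library left out, 1 to 5 in the ZT27 set and 0 to 1 in the ZT45 set, the 1 being PRR7 without sig5-3 4 °C ZT27 replicate 1. In a fit on the ZT27 libraries alone 0 were called between genotypes (limma; the cause was not tested, and fewer samples enter that fit). With a replicate block, 4 were called over all conditions, 4 in the ZT27 set and 0 in the ZT45 set. Over 84 pairs of samples with the same number, correlations of deviations ran from -0.405 to 0.392, with 15 above 0.1. The same number gave the highest correlation in 20 of the 84. No pairing by number was seen, but deviations from means of 3 samples cannot exclude one. The limit that a count of 0 allows, 3 reads, lay at values of 0.0688 to 0.111, far below the 15 genes. The spread comes from 3 samples a group, which limits small differences.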
